A study of Mus musculus with 6 samples.

Results

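Transcripts of 10 receptors of the tumour necrosis factor (TNF) receptor superfamily were followed in regulatory T cells (Tregs) with and without an intact Junb gene. The receptors were picked by gene symbol, with earlier results of these data known. They were Tnfrsf4, Tnfrsf18, Tnfrsf9, Tnfrsf1a, Tnfrsf1b, Cd27, Tnfrsf25, Tnfrsf14, Fas and Tnfrsf13b. Each matched 1 of the 53379 Ensembl identifiers in the deposited count tables, and all 10 were among the 20475 genes abundant enough to be tested. The cells came from C57BL/6 mice aged 3 months. Both groups carried Foxp3YFP-Cre, an allele that makes Cre recombinase in cells expressing Foxp3. The WT group had it with Junb+/+ (3 libraries) and the KO group with JunbFlox/Flox (3 libraries, titled bKO). Tregs had been purified by flow cytometry, while no source used here gives the gate, the sex of the mice or any pooling of animals. The comparison asked which receptor transcripts differ in Tregs when JunB, a subunit of the transcription factor AP-1, is removed.

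Receptors of this superfamily are membrane proteins that bind trimeric ligands through cysteine-rich repeats outside the cell. Most of those on T cells recruit TRAF adaptors and switch on NF-kappaB, which supports survival and division. Some, FAS and TNFR1 among them, carry a death domain that can lead to caspase activation. OX40 (Tnfrsf4), GITR (Tnfrsf18), 4-1BB (Tnfrsf9) and TNFR2 (Tnfrsf1b) are known as receptors that Tregs display at high levels, and the last of these is used as a mark of strongly suppressive Tregs.

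Library totals lay between 33784183 and 41231173 counts. In CPM, the counts of a gene scaled to a common library size, Junb itself had 87.1, 77.5 and 89.5 in the WT libraries and 57.1, 57.3 and 49.6 in the KO libraries, in the order of the replicate numbers as in all lists of values here. Its KO mean was 64.5% of WT, so counts for Junb remained in the libraries labelled KO. The log2 difference was -0.63 (SE 0.13, adjusted p = 0.9999 by edgeR and 0.0042 by DESeq2). Junb shares 173 of its exon bases, or 7.52%, with Prdx2 on the other strand, so its counts are uncertain. Of 8 Treg markers, 0 were at 0 in every library, but their summed level set KO replicate 1 apart: it was 1954, 1681 and 1887 CPM in WT and 772, 1359.6 and 1845 CPM in KO. KO replicate 1 was the lowest library for 8 of the 8 Treg markers, and for 18.6% of all tested genes. It also had the highest sum of 12 conventional and resting CD4 T cell markers, which came to 2161, 1988 and 1659 CPM in WT and 2751, 2387 and 1763 CPM in KO. B cell markers, none of them at 0 throughout, summed to 2397, 8712 and 1949 CPM in WT and 5248, 6444 and 2936 CPM in KO, most of it from the immunoglobulin gene Ighm. Myeloid markers summed to between 222 and 1133 CPM in WT and between 508 and 1238 CPM in KO, and CD8 T and NK cell markers to between 88.3 and 181 CPM and between 122 and 219 CPM. Plasma cell markers summed to between 379 and 2151 CPM in WT and between 749 and 2057 CPM in KO, and 8 pan-T cell markers to between 4245 and 5372 CPM and between 3791 and 4387 CPM. The part of other cells in the receptor and Junb values was not tested. In bulk RNA, fewer cells of a kind and less RNA per cell cannot be told apart.

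Among the 10 receptors, 8 had a lower mean in KO and 2 a higher one, Tnfrsf1a and Tnfrsf25. None passed the edgeR quasi-likelihood test with Benjamini-Hochberg adjustment over all genes (adjusted p = 0.9999 for each), and neither did any other gene: 0 of 20475 were called, or 0%. DESeq2 called 63 of 32929 genes (0.191%, or 0.272% of the 23198 to which it gave an adjusted p) and 0 of the 10 receptors. At an unadjusted p under 0.05, edgeR had 1 receptor, Tnfrsf1b, and 590 genes in all (2.88%). The median log2 difference (KO minus WT) was -0.32 over the 10 receptors and 0.0055 over all tested genes, of which 49.1% had a lower mean in KO. Because the receptors were chosen with earlier results of these data known, this contrast is a description only. Among cell type markers, 7 of 8 Treg markers (median -0.45) and 8 of 8 T cell markers (-0.20) had a lower mean in KO. A higher mean was found for 12 of 12 myeloid (0.71), 9 of 10 CD8 T and NK cell (0.65), 10 of 12 B cell (0.38), 10 of 12 conventional and resting CD4 T cell (0.31) and 6 of 8 plasma cell markers (0.23). None of these markers was called by edgeR or DESeq2. Tnfrsf1b was also the only receptor whose KO libraries all lay below the WT libraries, as did 4.07% of all tested genes. The KO libraries of 0 receptors all lay above WT, against 3.68% of tested genes. KO replicate 1 held the lowest value of 8 of the 10 receptors, all but Tnfrsf1a and Tnfrsf14. Without that library 7 of the 10 receptors had a lower mean in KO, with a median of -0.20, against -0.011 over all tested genes. In that fit 6 of 8 Treg markers (median -0.17) and 8 of 8 T cell markers (-0.12) also had a lower mean in KO. The other marker lists had medians above 0, from 0.068 (conventional and resting CD4 T cells) to 0.57 (myeloid cells).

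**Figure D1:**
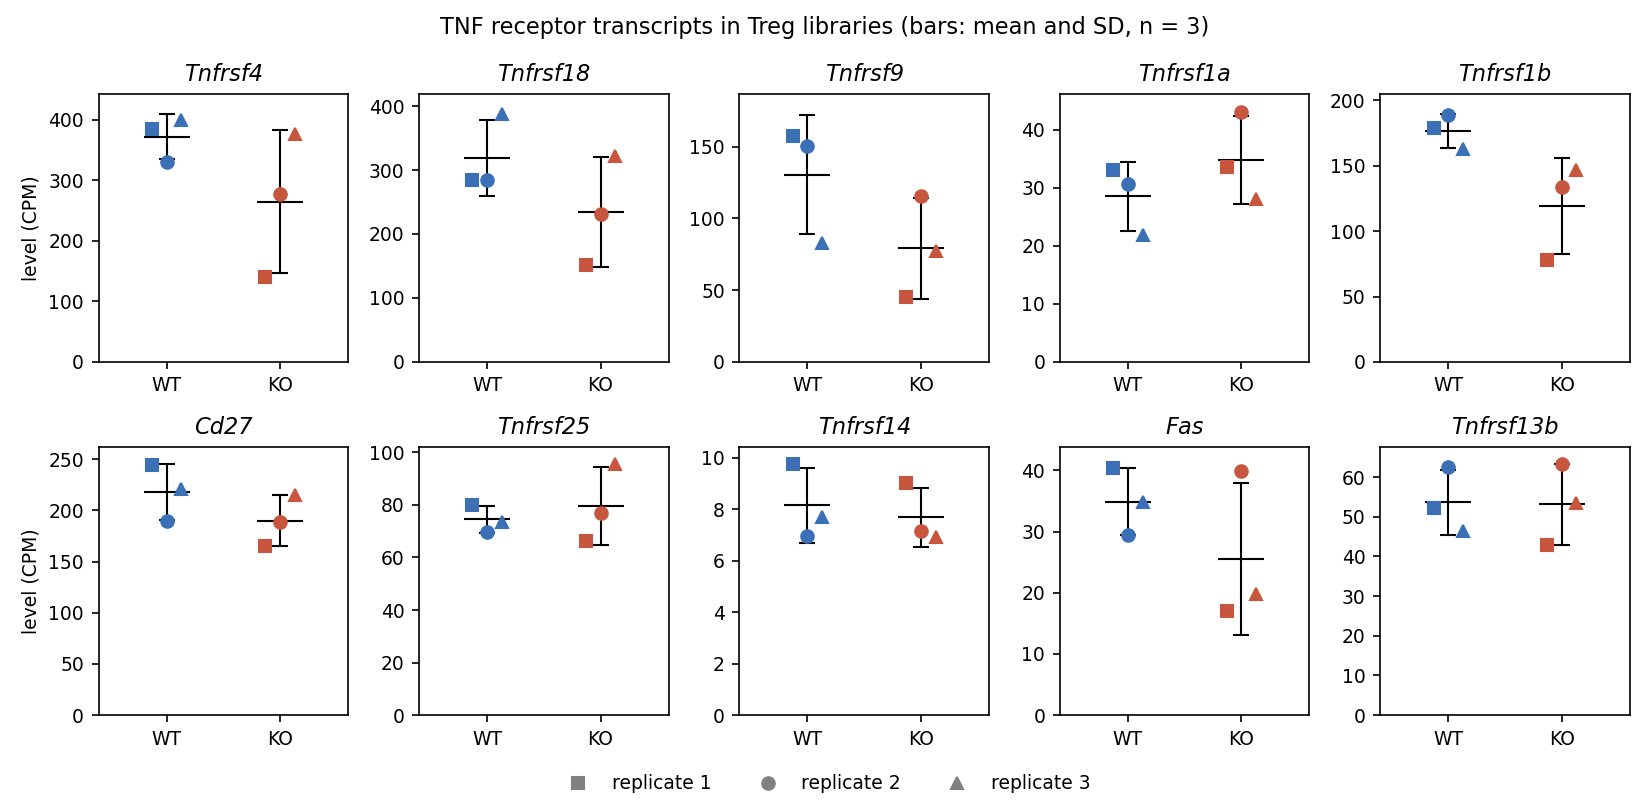
CPM (vertical axis, from 0) of the 10 receptors in each of 3 WT and 3 KO libraries, with symbols for the replicate number and bars for the mean and SD. KO replicate 1 (square) is the lowest point in 8 of the 10 panels, and the groups are apart only for Tnfrsf1b.

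Per length of transcript, the receptors covered a wide range of levels. The unit is CPM per kilobase of annotated exon, each value a mean with its SD (n = 3). In WT, Tnfrsf4 had the highest level, 273 ± 26.9, followed by Tnfrsf18 at 209 ± 39.2, and these neighbours overlapped between libraries. Cd27 came next at 93.7 ± 11.8, below every library of Tnfrsf18. Tnfrsf9 (47.9 ± 15.2) and Tnfrsf1b (46.3 ± 3.40) overlapped each other and lay below Cd27. Tnfrsf25, the receptor also called DR3, followed at 32.7 ± 2.27 without overlap with either neighbour. Tnfrsf13b (18.9 ± 2.89) and Fas (16.9 ± 2.66) overlapped. Tnfrsf1a stood at 11.004 ± 2.27 and Tnfrsf14 at 5.67 ± 1.01, each below all libraries of the gene above it. The highest mean was 48.1 times the lowest. The order in KO began with the same 3 genes, at 194 ± 86.5, 154 ± 56.2 and 81.6 ± 10.7, and ended with Tnfrsf14 at 5.35 ± 0.797. Between them Tnfrsf25 (35.02 ± 6.51), Tnfrsf1b (31.3 ± 9.63) and Tnfrsf9 (29.1 ± 12.9) overlapped in KO, in an order that differed from WT.

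**Figure D2:**
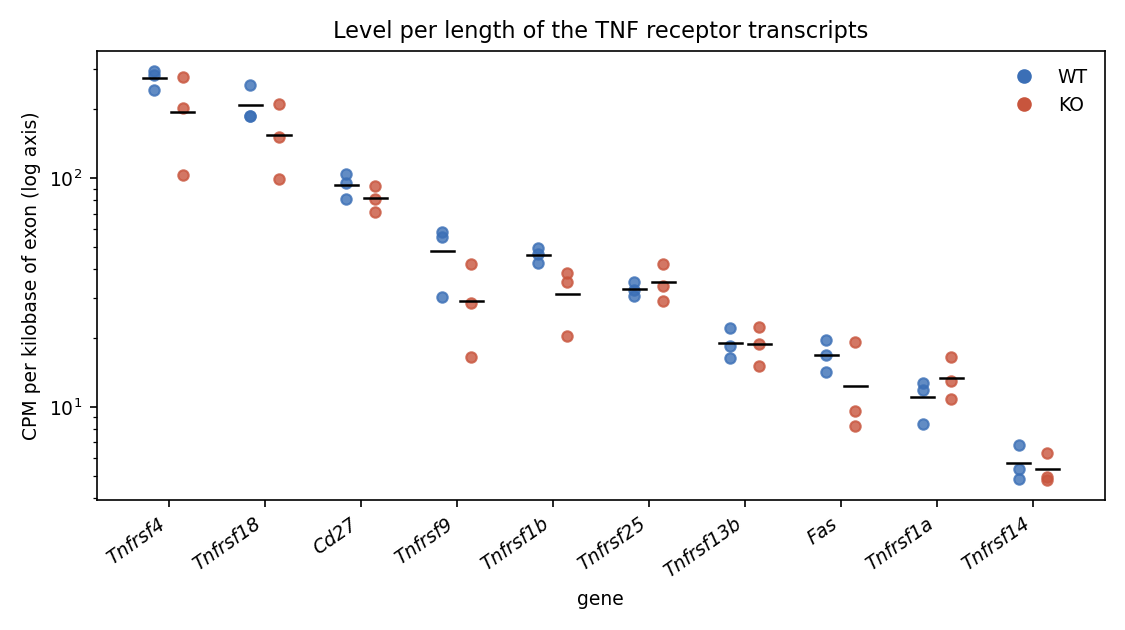
Level per length (CPM per kilobase of annotated exon, log axis) of the 10 receptors, ordered by their WT mean, with 1 point per library and a line at each group's mean. Levels run from 273 for Tnfrsf4 to 5.67 for Tnfrsf14 in WT, and WT and KO points are intermixed for all genes but Tnfrsf1b.

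Tnfrsf4 encodes OX40, a costimulatory receptor that sustains T cell survival after activation. Its level was 386, 331 and 401 CPM in WT, against 141, 278 and 376 CPM in KO. The KO libraries were spread widely, with replicate 1 far below the others and replicate 3 inside the WT range. The means were 372 ± 36.8 and 265 ± 118 CPM, a log2 difference of -0.49 (SE 0.33, 95% interval -1.26 to 0.28, unadjusted edgeR p = 0.175, exact permutation p = 0.2). Without KO replicate 1 the difference was -0.19.

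Tnfrsf18 encodes GITR, another costimulatory receptor, long used to recognise Tregs. It stood at 284, 285 and 388 CPM in WT and at 151, 231 and 322 CPM in KO. KO replicate 3 was above 2 of the 3 WT libraries, and KO replicate 1 was again the lowest. The log2 difference was -0.44 (SE 0.28, 95% interval -1.10 to 0.22, unadjusted edgeR p = 0.158, exact permutation p = 0.3), and -0.21 without KO replicate 1. Without WT replicate 3, the highest library, it was -0.28, and without KO replicate 3 it was -0.74. An antisense gene, Gm16008, shares 414 bases, or 27.2%, of the annotated exon bases of Tnfrsf18. Its CPM was between 23.6% and 25.5% of that of Tnfrsf18 in each library, and without the strand of the reads the contributions of the 2 genes cannot be told apart.

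Tnfrsf4 and Tnfrsf18 are neighbours on chromosome 4 (GRCm38), Tnfrsf4 at 156013843 to 156016612 and Tnfrsf18 at 156026164 to 156028895, both on the plus strand. A gap of 9551 bases separates them, with 0 other protein-coding genes in it. Their ratio within a library, per length, was 1.52, 1.30 and 1.15 in WT and 1.04, 1.34 and 1.30 in KO, with overlapping groups (exact two-sided permutation p = 0.7). The ratio of Tnfrsf9 to Tnfrsf4 overlapped too, at 0.205, 0.228 and 0.103 in WT and 0.160, 0.208 and 0.103 in KO (exact p = 0.7). That of Cd27 to Tnfrsf4 was 0.371, 0.336 and 0.323 in WT and 0.688, 0.399 and 0.335 in KO, highest in KO replicate 1 (exact p = 0.3). The protein-coding gene before the pair, Sdf4, which encodes a calcium-binding protein of the secretory pathway, stood at 351, 296 and 320.3 CPM in WT and at 234, 273 and 296 CPM in KO (log2 difference -0.27, SE 0.13). The gene after the pair, Ttll10, had at most 1.53 CPM in any library and did not pass the edgeR filter on low counts.

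The genes whose pattern over the 6 libraries was most like that of Tnfrsf4 were 2 Treg genes. Likeness was the root mean square difference of log2 CPM centred on each gene's mean, over 10202 genes with a mean of at least 10 CPM. The nearest to Tnfrsf4 was Ikzf2, the gene of the Treg transcription factor Helios, at a distance of 0.065, and the next was Izumo1r, which encodes the folate receptor FR4 of Tregs, at 0.099. Ikzf2 stood at 471, 421 and 475 CPM in WT and at 181, 314 and 477 CPM in KO. Izumo1r stood at 754, 631 and 800.2 CPM in WT and at 308, 519.8 and 654 CPM in KO. Both, like Tnfrsf4, had their lowest value in KO replicate 1, with KO replicate 2 between that and KO replicate 3. For Tnfrsf18 the nearest was its antisense partner Gm16008 (0.037), followed by Cops7b, a subunit gene of the COP9 signalosome (0.096). For Cd27 they were the kinase gene Map4k2 (0.038) and the centrosome gene Cep250 (0.046). For Tnfrsf1b they were Tigit, an inhibitory receptor found on Tregs (0.102), and the gene B230219D22Rik (0.115). Among the receptors themselves the closest pairs were Cd27 with Tnfrsf25 (0.159), Tnfrsf4 with Tnfrsf18 (0.170) and Tnfrsf4 with Tnfrsf1b (0.203), and the most distant was Tnfrsf4 with Tnfrsf1a (0.700).

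**Figure D3:**
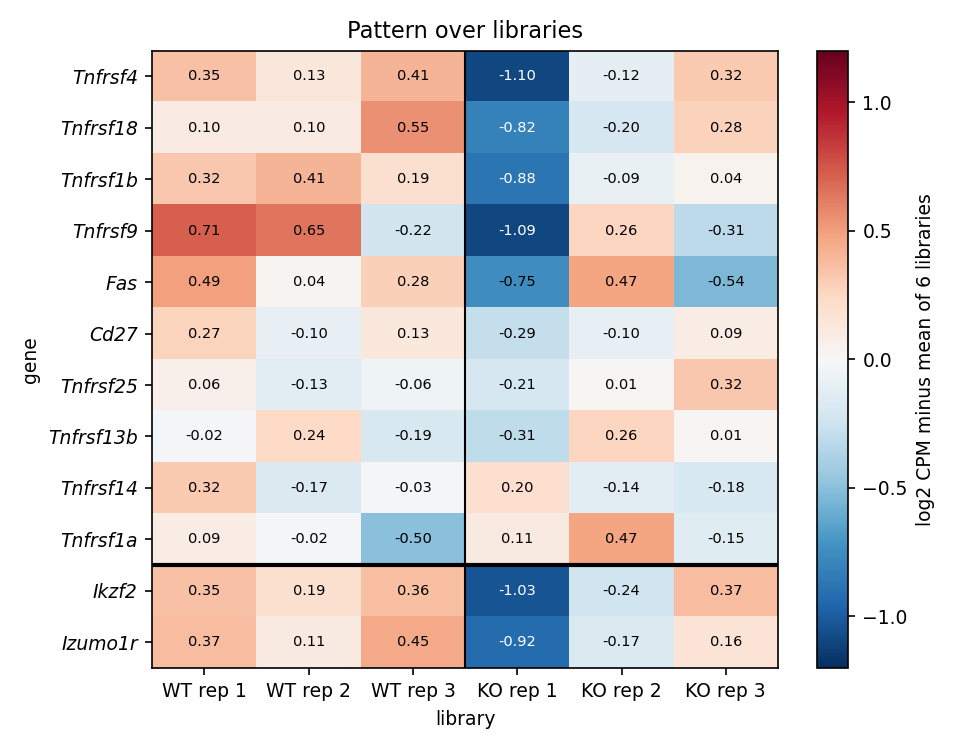
Log2 CPM minus the gene's mean over 6 libraries, by gene (rows) and library (columns), for the 10 receptors and, under the black line, Ikzf2 and Izumo1r. KO replicate 1 has -1.10 for Tnfrsf4 and -1.03 for Ikzf2, while Tnfrsf1a has 0.11 there and its lowest value, -0.50, in WT replicate 3.

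Tnfrsf1b and Tnfrsf1a encode TNFR2 and TNFR1, the receptors of TNF and lymphotoxin alpha, of which only TNFR1 has a death domain. Tnfrsf1b lies on chromosome 4 at 145213463 to 145246870 on the minus strand and Tnfrsf1a on chromosome 6 at 125349362 to 125362484 on the plus strand. Tnfrsf1b stood at 179, 189 and 163 CPM in WT and at 77.7, 134 and 147 CPM in KO. No KO value reached the lowest WT value, and the WT libraries were close together (coefficient of variation 7.35%, against 30.8% in KO). Its log2 difference was -0.57 (SE 0.24, 95% interval -1.12 to -0.01), with an edgeR p of 0.0475 before and 0.9999 after adjustment. An exact permutation test, two-sided, gave p = 0.1, its floor with 3 libraries a group. Without KO replicate 1 the difference was -0.34, and without KO replicate 3 it was -0.74, with unadjusted edgeR p of 0.0421 and 0.0265 in a fit across all genes. The unadjusted p was above 0.05 in the other 4 fits that left out a library (0.0986, 0.110 and 0.0638 without WT replicates 1, 2 and 3, and 0.0598 without KO replicate 2) and with a term for the number in the table names (0.0938). The difference was below 0 in each of these fits.

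Tnfrsf1a stood at 33.1, 30.6 and 21.9 CPM in WT and at 33.5, 43.0 and 28.0 CPM in KO. The groups overlapped, with the highest value in KO replicate 2 and the lowest in WT replicate 3. The log2 difference was 0.29 (SE 0.24, 95% interval -0.27 to 0.85, unadjusted edgeR p = 0.260, exact permutation p = 0.4). A term for the number in the table names, described with Tnfrsf9, moved it to 0.46. Leaving out WT replicate 3 moved it to 0.13, and leaving out KO replicate 2 to 0.11. Within a library, the level of Tnfrsf1b per length was 3.66, 4.19 and 5.06 times that of Tnfrsf1a in WT, and 1.57, 2.11 and 3.56 times in KO. The means were 4.31 ± 0.705 and 2.42 ± 1.03, and no KO library reached a WT library. The exact two-sided permutation p of this ratio was 0.1, again the smallest possible, and 0.4 after Benjamini-Hochberg adjustment over the 4 ratios computed. The ratio was added after the files were seen. It is made of the Tnfrsf1b and Tnfrsf1a values given above, so its separation is not a separate result. The highest KO ratio, 3.56, and the lowest WT ratio, 3.66, were close. Without KO replicate 3, the library with that ratio, the log2 difference of the ratio was -1.23, against -0.90 with all libraries, and it was -0.64 without KO replicate 1.

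**Figure D4:**
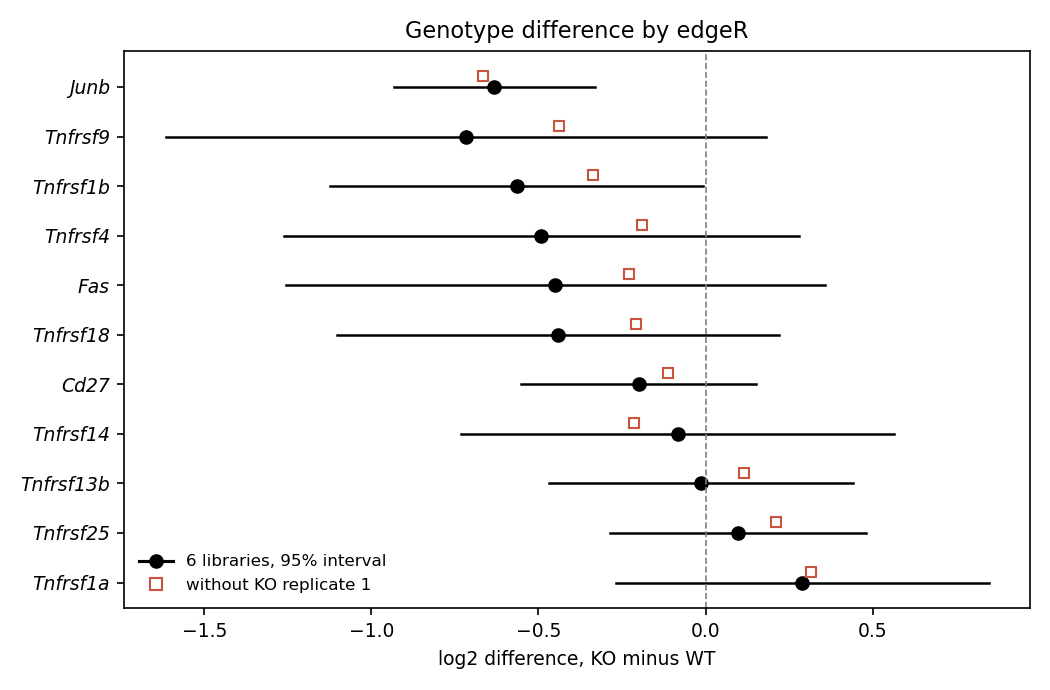
Log2 difference, KO minus WT (horizontal axis), of Junb and the 10 receptors by edgeR, with filled points and 95% intervals from all 6 libraries and open squares for the fit without KO replicate 1. Of the receptors, the interval of Tnfrsf1b alone ends below 0, at -0.01. Without KO replicate 1 the differences of Tnfrsf4, Tnfrsf18, Tnfrsf9, Fas, Tnfrsf1b and Cd27 lie nearer to 0, and those of Tnfrsf1a, Tnfrsf25, Tnfrsf14 and Tnfrsf13b lie further from it.

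Tnfrsf9 encodes 4-1BB, a costimulatory receptor induced by T cell receptor signals, and Fas the death receptor that ends T cell responses. A start region of each gene holds an AP-1 motif, the kind of site that complexes with JunB can bind. RefSeq promoter windows (GRCm38.p6) of 300 bases, from 250 before to 50 after a start, matched all 10 receptors and gave 12 windows, since Tnfrsf9 and Tnfrsf25 have 2 each. The letters TGANTCA, searched on both strands, occurred in 1 window of Tnfrsf9 and 1 of Fas, and in 7.81% of 32851 windows of the same length. The kappaB consensus, bound by NF-kappaB, was found in the same Tnfrsf9 window alone among the 12, and in 4.51% of all windows. The 2 windows with a match are shown beside those of Tnfrsf4, the most abundant receptor, and Tnfrsf1b, the one receptor with separate groups, which had neither. Capitals mark the matches, and the 2 overlapping kappaB matches in Tnfrsf9 form 1 run.
Tnfrsf9, second start, chr4:150927749-150928048, plus strand: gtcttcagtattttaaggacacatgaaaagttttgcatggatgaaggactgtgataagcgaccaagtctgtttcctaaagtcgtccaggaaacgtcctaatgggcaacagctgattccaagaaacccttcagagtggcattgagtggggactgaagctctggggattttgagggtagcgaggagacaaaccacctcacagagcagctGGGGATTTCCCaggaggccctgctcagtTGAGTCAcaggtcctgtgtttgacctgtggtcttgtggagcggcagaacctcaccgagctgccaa
Fas, chr19:34290409-34290708, plus strand: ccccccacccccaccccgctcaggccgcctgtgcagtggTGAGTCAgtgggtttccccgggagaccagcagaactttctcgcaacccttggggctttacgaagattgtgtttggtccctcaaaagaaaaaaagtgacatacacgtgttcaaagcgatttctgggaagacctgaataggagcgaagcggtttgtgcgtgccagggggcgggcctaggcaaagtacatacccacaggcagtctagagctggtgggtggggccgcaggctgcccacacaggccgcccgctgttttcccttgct
Tnfrsf4, chr4:156013445-156013744, plus strand: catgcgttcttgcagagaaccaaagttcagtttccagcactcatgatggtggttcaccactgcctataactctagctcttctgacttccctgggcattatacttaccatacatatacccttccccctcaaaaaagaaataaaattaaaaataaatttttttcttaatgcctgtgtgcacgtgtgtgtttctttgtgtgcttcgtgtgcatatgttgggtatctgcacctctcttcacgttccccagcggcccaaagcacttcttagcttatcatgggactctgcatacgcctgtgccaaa
Tnfrsf1b, chr4:145246821-145247120, minus strand: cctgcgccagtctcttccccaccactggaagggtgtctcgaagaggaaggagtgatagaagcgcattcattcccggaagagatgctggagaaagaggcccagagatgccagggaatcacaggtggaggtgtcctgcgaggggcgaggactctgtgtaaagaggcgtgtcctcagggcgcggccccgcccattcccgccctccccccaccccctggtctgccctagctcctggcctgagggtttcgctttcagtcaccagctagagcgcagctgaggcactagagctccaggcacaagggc
The AP-1 match begins 15 bases before the second Tnfrsf9 start and 211 bases before the Fas start. A match is a description of letters, and no binding was measured here. RefSeq starts can differ from the gene positions given here. The Tnfrsf4 window ends at 156013744, before the gene start at 156013843, so the bases at that start were not searched. The gene starts of Tnfrsf9, Tnfrsf1a and Tnfrsf14 likewise lie outside their windows.

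Tnfrsf9 lies on chromosome 4 at 150914562 to 150946102 and Fas on chromosome 19 at 34290666 to 34327772, both on the plus strand of GRCm38. Tnfrsf9 stood at 158, 151 and 82.7 CPM in WT and at 45.0, 115 and 77.5 CPM in KO. The log2 difference was -0.72, the most negative of the 10 receptors, and also the one with the widest interval (SE 0.38, 95% interval -1.62 to 0.18, unadjusted edgeR p = 0.101, exact permutation p = 0.2). The names of the deposited tables carry 1 of 2 numbers, shared by WT replicates 1 and 2 with KO replicate 2 (A) and by WT replicate 3 with KO replicates 1 and 3 (B). What the number stands for is not stated. The 3 libraries of A were all above the 3 of B in Tnfrsf9, which was so for no other of the 10 receptors, while the 2 sets were apart in either direction for 18.1% of all tested genes. KO was lower than WT within both sets, by a log2 difference of -0.42 in A (2 WT, 1 KO) and -0.48 in B (1 WT, 2 KO). With the number as a term the difference was -0.43. KO was also lower within both sets for Tnfrsf4 (-0.36 in A and -0.80 in B), Tnfrsf18 (-0.30 and -0.81), Tnfrsf1b (-0.46 and -0.61) and Cd27 (-0.19 and -0.23), and higher within both for Tnfrsf1a (0.43 and 0.48), Tnfrsf25 (0.04 and 0.11) and Tnfrsf13b (0.15 and 0.04). Tnfrsf14 and Fas differed in sign between the sets. For Tnfrsf9, leaving out KO replicate 1 gave -0.44 and leaving out KO replicate 2 gave -1.09.

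Fas stood at 40.4, 29.4 and 34.9 CPM in WT and at 17.1, 39.8 and 19.7 CPM in KO. KO replicates 1 and 3 lay below all WT libraries, and KO replicate 2 was close to the highest WT library. Its log2 difference came to -0.45 (SE 0.34, 95% interval -1.26 to 0.36, unadjusted edgeR p = 0.228, exact permutation p = 0.3). It was 0.21 within A and -0.92 within B, so its direction was not the same in both. Without KO replicate 2 it was -0.92, and without KO replicate 1 it was -0.23. KO had a coefficient of variation of 48.7% for Fas, the largest of any receptor in either group.

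Cd27, Tnfrsf25, Tnfrsf14 and Tnfrsf13b differed least between genotypes in size. CD27 is a receptor of resting and memory T cells, and its transcript stood at 244, 189 and 221 CPM in WT and at 165, 189 and 215 CPM in KO. KO replicate 3 exceeded WT replicate 2 and was the only KO library above any WT library. Its log2 difference came to -0.20 (SE 0.15, 95% interval -0.55 to 0.15, unadjusted edgeR p = 0.219, exact permutation p = 0.2). Leaving out WT replicate 1 or KO replicate 1 moved it to -0.11, and leaving out KO replicate 3 to -0.30. Cd27 and Tnfrsf1a lie on chromosome 6 with 112351 bases and 3 protein-coding genes between them (Cd27 at 125232622 to 125237010, minus strand), one of which is Ltbr, the lymphotoxin beta receptor, with at most 2.86 CPM in any library. Despite that nearness on the chromosome, the distance between the patterns of Cd27 and Tnfrsf1a was 0.402, above that of Tnfrsf4 and Tnfrsf18.

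Tnfrsf25, whose receptor expands Tregs when its ligand TL1A binds, stood at 80.0, 69.8 and 73.7 CPM in WT and at 66.4, 77.1 and 95.7 CPM in KO. KO held both the lowest and the highest library. Its log2 difference came to 0.10 (SE 0.16, 95% interval -0.29 to 0.48), and it was 0.21 without KO replicate 1 and -0.06 without KO replicate 3. Tnfrsf14 encodes HVEM, which binds both the ligand LIGHT and the inhibitory receptor BTLA. It was the least abundant receptor, at 9.77, 6.98 and 7.71 CPM in WT and 9.01, 7.14 and 6.93 CPM in KO, with groups that overlapped. Its log2 difference was -0.08 (SE 0.27, 95% interval -0.73 to 0.56), and it was 0.07 without WT replicate 1. Tnfrsf25 and Tnfrsf14 lie on chromosome 4, at 152115934 to 152120119 on the plus strand and at 154921933 to 154928563 on the minus strand. The intervals of these genes still hold differences of either sign.

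Tnfrsf13b encodes TACI, a receptor for BAFF and APRIL that is best known from B cells. Its gene lies on chromosome 11 at 61126755 to 61149372 on the plus strand. It stood at 52.1, 62.6 and 46.4 CPM in WT and at 42.8, 63.3 and 53.4 CPM in KO. WT replicate 2 and KO replicate 2, its highest libraries, also had the highest sums of B cell markers (8712 and 6444 CPM). KO replicate 1, its lowest, had 5248 CPM of these markers, more than WT replicates 1 and 3. Most of each sum came from Ighm (4492 CPM in KO replicate 1 and 5770 in KO replicate 2). Cd79b and Cd79a, the next most abundant, were higher in KO replicate 1 (201 and 187 CPM) than in KO replicate 2 (184 and 140 CPM). Other markers of the list went either way. The log2 difference of Tnfrsf13b was -0.01 (SE 0.19, 95% interval -0.47 to 0.44) and changed sign without KO replicate 1, at 0.12. Tnfrsf13c, the BAFF receptor gene of B cells, stood at 9.92, 41.0 and 3.02 CPM in WT and at 41.6, 23.1 and 19.6 CPM in KO, a far wider spread than that of Tnfrsf13b. The part of B cells in the Tnfrsf13b values was not tested.

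The lowest count of any receptor was 239, for Tnfrsf14, where counting alone gives a coefficient of variation of 6.47%. For the other 9 receptors counting alone gives at most 3.94%. Between libraries, the coefficient of variation of a receptor was 6.94% to 31.8% in WT and 13.1% to 48.7% in KO, and it was larger in KO for 9 of the 10, all but Tnfrsf14.

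Of 18 other receptors of the superfamily, 12 were tested, 0 were called by edgeR or DESeq2, and 6 had a lower and 6 a higher mean in KO (median log2 difference -0.0089, against 0.0055 over all tested genes). Tnfrsf11b, Eda2r and Ngfr had 0 counts in all 6 libraries. The most abundant of the list was Tnfrsf26, at 91.7, 83.1 and 57.0 CPM in WT and at 81.8, 109 and 108 CPM in KO (log2 difference 0.36, SE 0.21). Relt followed at 30.9, 26.0 and 25.1 CPM in WT and 29.6, 27.2 and 14.9 CPM in KO. Both overlapped between genotypes, as did all 12 tested genes of the list.

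Ligand genes of the superfamily showed no common direction. Of 18 listed, 15 were tested, 0 were called, and 8 had a lower and 7 a higher mean in KO (median -0.09). Libraries did not overlap for 4 of the 15, where 7.76% of all tested genes had none. Tnfsf9, the ligand of 4-1BB, was one: it stood at 6.59, 8.99 and 3.10 CPM in WT and at 2.65, 2.23 and 2.13 CPM in KO, a log2 difference of -1.41 (SE 0.46, unadjusted edgeR p = 0.0178, exact permutation p = 0.1). WT replicate 3 was close to KO, as it was for Tnfrsf9. Tnfsf9 shares 14.9% of its exon bases with Gm11110 on the other strand, so its counts are uncertain. Fasl, the ligand of FAS, lay the other way, at 7.40, 7.71 and 2.06 CPM in WT and 10.3, 14.3 and 10.7 CPM in KO (log2 difference 1.04, SE 0.50). The other 2, Tnfsf8 (CD30 ligand, log2 difference -0.27) and Cd40lg (CD40 ligand, 0.47), differed less, and Cd40lg was chosen for mention after its values were seen.

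Tnf stood at 19.9, 18.8 and 27.8 CPM in WT and at 17.8, 19.4 and 32.0 CPM in KO, and Lta at 46.2, 39.3 and 36.9 CPM and at 30.2, 43.0 and 38.6 CPM. These ligands of TNFR1 and TNFR2 overlapped between genotypes. The most abundant ligand gene was Ltb, which encodes lymphotoxin beta, at 194, 129 and 173 CPM in WT and at 158, 75.6 and 51.7 CPM in KO (log2 difference -0.80, SE 0.40). It did not have its lowest value in KO replicate 1, unlike 8 of the 10 receptors. Tnfsf14, the gene of LIGHT, stood between 9.02 and 11.3 CPM in WT and between 6.54 and 12.9 CPM in KO. The ligand genes of OX40 (Tnfsf4), CD27 (Cd70), DR3 (Tnfsf15) and TACI (Tnfsf13, Tnfsf13b) stayed at or below 5.69 CPM in every library. Tnfsf18, the ligand gene of GITR, had 1, 1 and 0 counts in WT and 22, 8 and 17 counts in KO. It did not pass the edgeR filter on low counts, and DESeq2 gave it an adjusted p of 0.447. Tnfsf13 shares 60% of its exon bases with the fusion gene Tnfsfm13, so its counts are uncertain.

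Adaptors and signal proteins behind the receptors were present in all libraries. All 24 genes of the list were tested, 0 were called, and 14 had a lower and 10 a higher mean in KO (median -0.04). The most abundant were Traf1, an adaptor that NF-kappaB itself induces (195, 170.1 and 168 CPM in WT and 102, 192 and 160.4 CPM in KO), the kinase gene Ikbkb (111, 150.3 and 89.3 CPM and 107, 139 and 143 CPM) and Casp8, the caspase that FAS engages (132, 112 and 88.7 CPM and 91.5, 135 and 121 CPM). Traf1 had its lowest value in KO replicate 1, and its other KO libraries lay within or near the WT range. Groups did not overlap for 2 of the 24, both lower in KO (4.07% of all tested genes lay so, and 7.76% were apart in either direction), and named after their values were seen: Rbck1, a subunit of the linear ubiquitin ligase that acts on TNF receptor complexes (log2 difference -0.31, SE 0.13), and the kinase gene Chuk (-0.30, SE 0.17). Without KO replicate 1 the medians of the ligands and adaptors were 0.04 and -0.0017, and that of the other receptors was 0.16, over 13 genes that then passed the filter in place of 12.

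**Figure D5:**
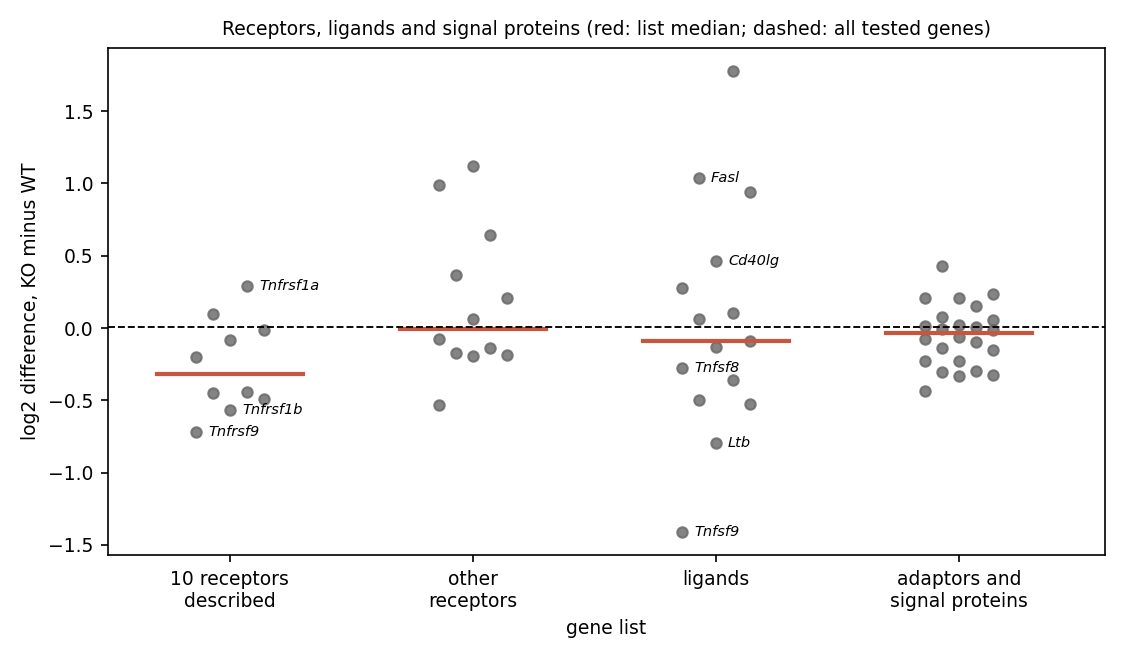
Log2 difference, KO minus WT (vertical axis), of each tested gene in 4 lists, with a red line at the list's median and a dashed line at the median of all tested genes. The medians are -0.32 for the 10 receptors, -0.0089 for other receptors, -0.09 for ligands and -0.04 for adaptors and signal proteins. The lists were chosen with earlier results of these data known.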

How the data were processed

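Tregs of 3 WT and 3 KO libraries were profiled by RNA-seq. The authors deposited raw read counts per Ensembl gene, made with bcl2fastq 2.19.0.316, STAR 2.3 and featureCounts on mm10, per the submitters' processing notes. No source used here gives the strand setting, the annotation release or the multi-mapping rule. Symbols, positions and exon lengths came from GENCODE M21 (GRCm38), which matched 53274 of 53379 identifiers, and promoters from RefSeq (GRCm38.p6). Genes were filtered with filterByExpr, scaled by TMM and compared with edgeR 4.0.16 (R 4.3.3), with a robust quasi-likelihood fit on genotype, two-sided tests and Benjamini-Hochberg adjustment over all genes at 0.05. Standard errors come from the F statistic. CPM use TMM library sizes, means are ± SD over 3 libraries, and within-set differences of the table-name number use log2(CPM + 0.1). DESeq2 1.42.0, limma-voom (limma 3.58.1), RLE factors, other filters, a replicate block, a term for the table-name number and leaving out each library were alternatives. The scripts were tested on simulated data. Library totals were 33784183 to 41231173 counts. Counting errors cover counting only, since the reads carry no stated molecular identifiers. Whether each library is a separate animal is not labelled. The p-values therefore cover only variation among these libraries, which may be technical.

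The members and gene lists were chosen with earlier results of these data known. Named were the 10 receptors and Junb, the 3 most abundant genes of each pathway list, genes called in it, and ligands of the receptors, while cell markers were given as sums. For the 4 receptors of highest CPM, the 2 genes of nearest pattern were also named. The 4 ratios within a library, and the genes beside Tnfrsf4 and Tnfrsf18, were added after the files were seen.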

Additional observations from a re-analysis of the deposited data

How the results depend on the processing

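Under 12 of the 13 alternatives 0 genes were called (edgeR and limma-voom), as in the reported edgeR fit, where 590 had an unadjusted p under 0.05 (740 by limma-voom). DESeq2 called 63. None of the 10 receptors was called under any of the 13. Receptors other than Tnfrsf1b also had an unadjusted edgeR p under 0.05 in some alternatives. It was 0.0061 for Fas and 0.027 for Tnfrsf9 without KO replicate 2, and 0.041 for Tnfrsf9 without WT replicate 3. Without KO replicate 3 it was 0.033 for Tnfrsf4 and 0.026 for Tnfrsf18. Tnfrsf18 had 0.031 with the replicate block, and Tnfrsf1a had 0.026 with the table-name term. The smallest adjusted p that a receptor reached was 0.842, for Tnfrsf1b by DESeq2. The differences of Tnfrsf4, Tnfrsf18, Tnfrsf9, Tnfrsf1b, Tnfrsf1a, Fas and Cd27 kept their sign under all 13. Signs changed for Tnfrsf13b (0.097 with the table-name term, 0.11 without WT replicate 2 and 0.12 without KO replicate 1), Tnfrsf14 (0.066 without WT replicate 1) and Tnfrsf25 (-0.057 without KO replicate 3), and leaving out 1 library in turn gave -0.16 to 0.12, -0.22 to 0.066 and -0.057 to 0.21 for these 3. With the longest annotated transcript as length, WT levels per kilobase were 342 for Tnfrsf4, 268 for Tnfrsf18, 139.9 for Cd27, 44.9 for Tnfrsf25, 6.95 for Tnfrsf14 and 21.5 for Fas, which then stood above Tnfrsf13b (21.0). The mean of Tnfrsf1b stayed at 46.3, close to that of Tnfrsf25, so the gap between Tnfrsf1b and Tnfrsf25 depends on the length used. No pairing of the libraries is labelled. Between WT and KO libraries of the same replicate number, deviations from the group means correlated at -0.095, 0.19 and 0.035. WT replicate 2 correlated best with KO replicate 2, but WT replicates 1 and 3 did so with KO replicates 3 and 1. These values do not settle whether libraries were paired. With the replicate number as a block 0 genes and 0 receptors were called, and the median over the 10 receptors was -0.35. Leaving out 1 library in turn gave medians from -0.40 to -0.20, and 0 called genes each time. The common dispersion of the edgeR fit was 0.260. Why edgeR and DESeq2 differ in their counts was not tested.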
